A study of Hordeum vulgare with 28 samples.

Results

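Barley leaves fed on for 24 h by the generalist spider mite *Tetranychus urticae* (T24) were compared with leaves that carried no mites (C). The comparison took 4 T24 and 4 C samples out of 28 in the series, assigned by their labels alone, and covered all 16948 genes that passed a filter on low counts, out of 25592 in the count table. All plants were barley (*Hordeum vulgare*) of the cultivar Morex, 30 days old, and poly(A) RNA came from a section of leaf number 5. T24 leaf sections received 200 adult female mites of a single strain, W-GR, which had been reared on bean and then moved to barley before the experiment. Control leaves bore the same wax barriers that kept mites in place, and the study had 1 set of controls for both of its time points. Each library came from 1 leaf section, so the 4 replicates of a group were separate leaves. Of the other groups of 4, 3 were used only to show where T24 differed: leaves with 200 *Oligonychus pratensis*, a grass specialist, for 24 h (O24), leaves pressed with 60 grit sandpaper 24 h before collection (W24), and leaves with 400 *T. urticae* for 2 h (T2).

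Spider mites pierce leaf cells with needle-like stylets and empty them, mostly in the mesophyll, the photosynthetic tissue of the leaf. Plants answer this kind of injury chiefly through jasmonate, a hormone made from plastid lipids by enzymes that include allene oxide synthase. Jasmonate removes JAZ repressor proteins and so switches on genes for protease inhibitors, chitinases and other proteins that impair feeding, while genes for photosynthesis are commonly turned down. Ethylene, calcium signals and protein kinases act alongside it.

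After 24 h of feeding, 2389 genes were higher in T24 than in C and 982 were lower. These are 14.1% and 5.79% of the genes tested. A gene was called where edgeR's quasi-likelihood test gave a Benjamini-Hochberg adjusted p under 0.01 and the log2 fold change exceeded 1 in either direction. The upregulated genes changed by far more than the downregulated genes, with a median log2 fold change of 2.10 against -1.30 and 0.02 over all genes tested. A log2 fold change over 4 was seen for 586 upregulated genes, whereas 3 genes fell by more than 4 on this scale. In 141 of the upregulated genes no read was counted in any of the 4 control libraries, out of 187 such genes tested. These genes passed the filter only through other groups, so their number is a description. No gene called lower was at 0 counts in all 4 T24 libraries.

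**Figure D1:**
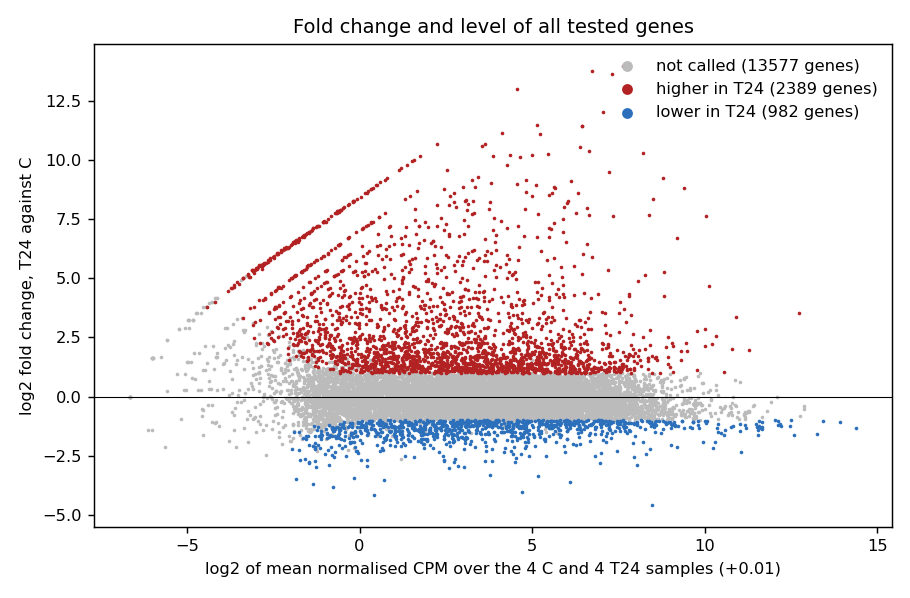
Each point is 1 of the 16948 genes tested, placed by the log2 of its mean normalised CPM over the 8 libraries (x axis) and its log2 fold change of T24 against C (y axis). Upregulated genes (2389, red) reach far higher fold changes than downregulated genes (982, blue) do in the other direction, and the straight diagonal runs of red points at the left are genes with 0 or very few control counts.

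Levels are given as normalised CPM, the usual scaling of counts to a common library total (CPM), here with totals corrected by TMM factors, which make up for differences in composition between libraries. The values of the 4 T24 and the 4 C samples did not overlap in 53.6% of all genes tested and in 96.4% of the genes called. Library totals were 13.7 M to 20.7 M counts in T24 and 22.8 M to 35.2 M in C. TMM factors were 1.07 to 1.14 in T24 and 0.880 to 1.02 in C, so the choice of scaling moved all genes together. With library size alone the median log2 fold change of all genes was 0.24 in place of 0.02, and 85.1% of called genes were higher in T24 in place of 70.9%. With upper-quartile factors the share was 65.7%.

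Genes are named by their reciprocal best match in *Arabidopsis thaliana*, and every role stated is the one known in that plant. The table of matches was held only in part. It covered 1828 of the genes tested, of which 8.32% were called higher and 4.81% lower, against 14.8% and 5.91% of the 15120 genes that the held part did not cover, whose matches, if any, were not used here. Counts of calls on the lists below are to be read beside these shares, and few calls on a short list differ little from them.

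Of 5 jasmonate genes 3 rose, AOS by far the most. AOS (MLOC_21933), allene oxide synthase, which opens the branch of lipid metabolism that leads to jasmonate, was at 1.29, 3.58, 0.803 and 0.710 normalised CPM in the 4 control leaves. In the T24 leaves it reached 267, 324, 412 and 284. Every infested leaf was far above every control leaf, and control replicate 2 was the highest of the controls. The log2 fold change was 7.62 ± 0.62 (SE, n = 4 and 4; edgeR adjusted p = 3.5e-10), or 196-fold. Without control replicate 2 it was 8.45.

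JAZ1 (MLOC_12120), a repressor of jasmonate responses whose own gene is switched on by the hormone, was at 19.7, 26.9, 23.4 and 18.7 in C and at 210, 258, 270 and 283 in T24. The groups did not overlap, and the log2 fold change was 3.52 ± 0.25 (edgeR adjusted p = 1.4e-11). PTR3 (MLOC_20817), a peptide transporter that wounding induces, rose less, by 1.26 ± 0.15 on the log2 scale. JAM2, a transcription factor that restrains jasmonate responses, and ST2A, a sulfotransferase that inactivates hydroxylated jasmonate, were not called, with log2 fold changes of 0.07 and 0.48. In all, 3 of the 5 members were called higher and 0 lower, with a median of 1.26.

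Defence proteins included the largest fold change of any gene on the lists, apart from the terpene synthases described below. MLOC_2643, a protease inhibitor of the potato inhibitor I type, of the kind that blocks digestive enzymes in herbivores, was at 0.910, 7.74, 2.23 and 1.03 in C. In T24 it was at 856, 1240, 2037 and 1276. Control replicate 2 was again the highest control, and still far below the lowest infested leaf. The log2 fold change was 8.79 ± 0.81 (edgeR adjusted p = 2.3e-09), and 9.94 without that control leaf.

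BG3 (MLOC_13908), a beta-1,3-glucanase that cuts fungal and plant cell wall glucans, was at 0.527, 0.512, 0.134 and 0.194 in C and at 50.5, 84.6, 62.8 and 89.2 in T24. CHIV (MLOC_13056), a class IV chitinase, was at 0.0958, 0.0341, 0.0446 and 0 in C and at 5.38, 5.59, 5.61 and 9.46 in T24. For both, all infested leaves lay far above all controls, with log2 fold changes of 7.71 ± 0.28 and 7.20 ± 0.59. PAD4 (MLOC_1340), a lipase-like protein of salicylic acid signalling, rose by 1.21 ± 0.12 on the log2 scale. At low levels, a thaumatin-like protein (MLOC_10662), at 0 to 0.0892 in C and 0.182 to 0.500 in T24, and a PR-1-like protein (MLOC_12581), at 0.223 to 0.527 and 0.474 to 1.23, were also called higher. Both were singled out after their values were seen. PRX25 (MLOC_12821), a class III peroxidase, fell by 1.16 ± 0.24 on the log2 scale. Its samples overlapped, with T24 between 1.64 and 3.04 and C between 2.97 and 6.42, and with scaling by library size alone it was not called (log2 fold change -0.93). Of 11 members 9 were tested, of which 6 were called higher and 1 lower, with a median log2 fold change of 1.48.

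Some genes rose on a list of early stress signalling, which holds calcium sensors, kinases and other stress genes. CML39 (MLOC_10787), a calmodulin-like calcium sensor, was at 0.0479, 0.0682, 0 and 0.0323 in C and at 2.42, 4.54, 2.23 and 4.12 in T24. OM66 (MLOC_1081), an ATPase of the mitochondrial outer membrane that marks stress, was at 0.144, 0.443, 0.134 and 0.258 in C and at 11.7, 15.9, 11.6 and 16.3 in T24. The infested leaves stood apart from the controls for both genes, with log2 fold changes of 6.25 ± 0.73 and 5.72 ± 0.29. TET8 (MLOC_14959), a tetraspanin of extracellular vesicles, rose by 3.64 ± 0.33 on the log2 scale, and T24 replicate 4 stood out at 177 beside 84.5 to 92.3 in the other infested leaves. MPK3 (MLOC_17814), a mitogen-activated protein kinase of immune and wound signalling, rose from 24.8 ± 2.34 to 91.1 ± 16.1 (mean ± SD, n = 4), a log2 fold change of 1.88 ± 0.17. The calcium-dependent kinase CPK3 and the hydrogen peroxide sensor HPCA1 stayed under the fold minimum at 0.81 and 0.84. Of 13 members 11 were tested, of which 4 were called higher and 0 lower, with a median of 0.81. Without the fold minimum 6 were higher and 1 lower.

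Volatile terpenes attract predators of mites, and 3 barley terpene synthase genes named by the study were all called higher. MLOC_56812 had no count in any control and 47, 93, 127 and 132 counts in the T24 libraries, which is at least 169-fold higher than the floor, set at 3 counts over all controls. MLOC_76989 likewise had no control count and 44, 33, 58 and 41 counts in T24, at least 74.3-fold higher. MLOC_13618 was at 0, 0.409, 0 and 0.0323 normalised CPM in C and at 5.47, 14.2, 9.06 and 12.1 in T24, a log2 fold change of 6.30 ± 0.44. Without control replicate 2 only 1 count was left in the controls and the value was 9.05. All infested leaves lay above all controls for each of the 3 genes. The study singled out these genes for their induction in these same libraries, so the 3 calls are a description and no independent evidence of a direction.

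Upstream of these enzymes, FPS1 (MLOC_10729), farnesyl diphosphate synthase, which supplies the precursor of sesquiterpenes and sterols, fell, from 737, 623, 586 and 679 in C to 413, 306, 268 and 222 in T24. The groups did not overlap, and the gene fell by 1.12 ± 0.15 on the log2 scale (edgeR adjusted p = 8.4e-07). With library size alone its log2 fold change was -0.90, under the fold minimum. DXR and MDS, enzymes of the plastid route to terpenoids, and TPS14, a linalool synthase in Arabidopsis, were not called, with log2 fold changes of -0.62, -0.70 and -0.93. They missed only the fold minimum, with edgeR adjusted p of 0.00030, 6.2e-07 and 9.7e-08 and no overlap of the groups. The one call in the other direction was AAS (MLOC_18474), an aromatic aldehyde synthase that makes the volatile phenylacetaldehyde, at 1.77, 1.71, 1.43 and 1.45 in C and 5.15, 19.4, 6.16 and 17.4 in T24. It rose by 2.93 ± 0.34 on the log2 scale, with T24 replicates 2 and 4 well above replicates 1 and 3. Of 8 members 7 were tested, of which 1 was called higher and 1 lower, with a median of -0.63. Without the fold minimum 1 was higher and 5 were lower.

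A few genes of aromatic metabolism and of the pentose phosphate pathway rose. REF1 (MLOC_10218), an aldehyde dehydrogenase that makes ferulic and sinapic acids, rose by 1.52 ± 0.15 on the log2 scale, from 23.3 to 26.9 normalised CPM in C to 62.3 to 86.4 in T24. DAHP synthase (MLOC_17364), the entry enzyme of the shikimate pathway, was just past the fold minimum at 1.01 ± 0.16, and it was under it with upper-quartile factors (0.94), with no filter (0.99), with the replicate number as a block (0.99) and without T24 replicate 2, 3 or 4 (0.92, 0.99 and 0.97) or C replicate 2 or 3 (0.95 and 0.99). In the pentose phosphate pathway, which makes NADPH, 6-phosphogluconate dehydrogenase PGD2 (MLOC_25686) rose by 1.20 ± 0.12 and transaldolase (MLOC_20070) by 1.45 ± 0.17. Of the 2 glucose-6-phosphate dehydrogenases on that list, G6PD2 was at -0.80 and G6PD6 at 0.20, and neither was called. G6PD2 missed only the fold minimum, with an edgeR adjusted p of 0.00018 and no overlap of the groups. On the aromatic list 2 of 6 were called higher with a median of 0.53, and on the pentose phosphate list 2 of 5 with a median of 0.20. No member of either list was called lower, and without the fold minimum 1 of the pentose phosphate list, G6PD2, was.

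Of 7 genes of glutathione and redox metabolism 2 rose, beside 14.1% called higher among all genes tested. SAPX (MLOC_13927), an ascorbate peroxidase of plastids and mitochondria, was at 12.4, 11.8, 15.2 and 13.9 in C and at 47.4, 56.1, 57.8 and 67.5 in T24. GSH2 (MLOC_19025), glutathione synthetase, rose from 11.8 ± 2.06 (mean ± SD, n = 4) to 28.4 ± 8.18, with the lowest T24 leaf at 19.1. For both genes each infested leaf exceeded each control, with log2 fold changes of 2.10 ± 0.12 and 1.26 ± 0.23. The other 5 members were not called. The list's median was -0.13 and turned to 0.11 with library size alone.

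Genes for protein folding in the endoplasmic reticulum, where secreted proteins mature, rose, with the highest median of the 21 lists by role. The 5 genes called higher were CNX1 (MLOC_2075), the chaperone calnexin, SDF2 (MLOC_13440) and ERDJ3B (MLOC_13401), partners in a folding complex, the disulfide isomerase PDIL2-1 (MLOC_15962), and BZIP60 (MLOC_22013), a transcription factor of the unfolded protein response. CNX1 was at 115, 118, 143 and 116 in C and at 437, 473, 498 and 594 in T24. BZIP60 was at 33.0, 33.6, 26.5 and 23.7 in C and at 63.8, 89.4, 76.6 and 86.2 in T24. The groups did not overlap for any of the 5 genes, whose log2 fold changes ran from 1.44 ± 0.13 for BZIP60 to 2.02 ± 0.12 for CNX1. HRD3A, a component of the pathway that removes misfolded proteins, was at 0.81, under the fold minimum. The median of the 6 members was 1.58.

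**Figure D2:**
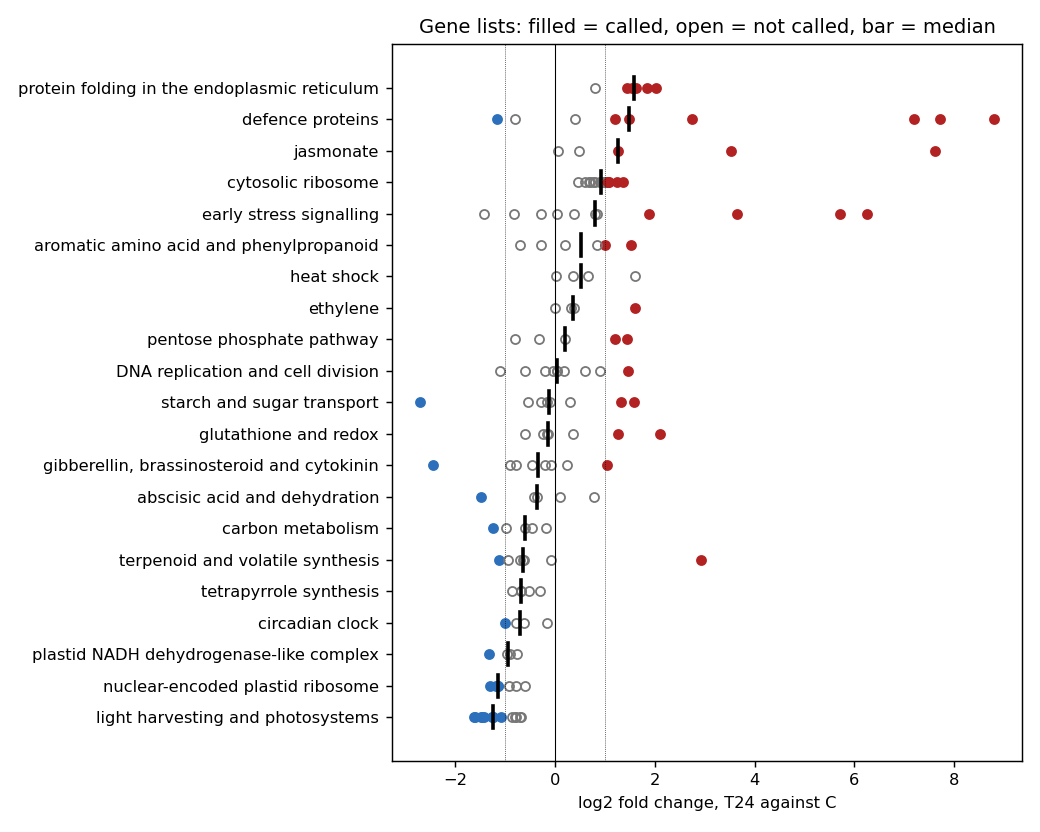
Each row is a list of genes by known role and each point a tested member, placed by its log2 fold change of T24 against C. Filled points were called (red higher, blue lower), open points were not, black bars are medians and dotted lines mark the fold minimum of 1. Protein folding has the highest median (1.58) and light harvesting the lowest (-1.24).

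Most of the light-harvesting and photosystem genes fell. LHCB2 (MLOC_22471), an antenna protein of photosystem II, was at 9291, 7003, 10529 and 10225 normalised CPM in C and at 3140, 3770, 3195 and 1913 in T24. LHCB3 (MLOC_17002) was at 5004, 3475, 4888 and 4771 in C and at 1645, 1909, 1496 and 919 in T24. In both genes all infested leaves lay below all controls, control replicate 2 was the lowest control and T24 replicate 4 the lowest of all. The log2 fold changes were -1.62 ± 0.21 and -1.60 ± 0.22 (edgeR adjusted p = 3.7e-07 and 8.0e-07). LHCB6 (MLOC_11961), LHCA6 (MLOC_18354), LHCA1 (MLOC_20487) and PSBX (MLOC_24024), parts of the antennae and of photosystem II, fell by 1.48, 1.45, 1.26 and 1.41 on the log2 scale.

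The light-harvesting and photosystem list also holds genes that code for no part of a photosystem or antenna, such as ATPG of the plastid ATP synthase. Its 14 members are called photosystem genes here for short. Of the 14 photosystem genes 9 were called lower and 0 higher, with a median of -1.24 and a range of -1.62 to -0.68. All 14 had an adjusted p under 0.01 and a negative fold change. With library size alone 7 were called lower and the median was -1.01. In bulk leaf tissue, fewer mesophyll cells and less RNA per cell cannot be told apart. Antenna genes belong to families of close copies, and only uniquely aligned reads were counted, so reads shared by copies are missing from these levels.

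Plastids translate part of the photosynthetic apparatus on ribosomes of their own. Of 8 nuclear genes for proteins of the plastid ribosome 5 were called lower and 0 higher, with a median of -1.13. The 5 were PRPS17 (MLOC_22197), PRPL24 (MLOC_11884), PSRP4 (MLOC_10282), PRPL11 (MLOC_22377) and PRPS5 (MLOC_19596), at log2 fold changes of -1.29, -1.18, -1.16, -1.13 and -1.13. PRPL24 was at 136, 110, 158 and 183 in C and at 66.0, 87.3, 66.1 and 40.2 in T24, so the groups did not overlap. These calls lay close to the fold minimum. With library size alone 1 of the 5 was called. Without C replicate 4 PRPL11 and PRPS5 stood at -0.97 and were not called, nor was PRPS5 without T24 replicate 4 (-0.99).

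GDCH (MLOC_15707), the H protein of glycine decarboxylase in photorespiration, fell by 1.23 ± 0.23 on the log2 scale, from 490 ± 165 to 208 ± 43.7. It was the only one called of 5 genes of carbon metabolism (median -0.60), and was at -0.99 with library size alone. PNSB3 (MLOC_28183), of the plastid NADH dehydrogenase-like complex, fell by 1.32 ± 0.14, as the only call among 4 members with a median of -0.93. None of 5 genes of tetrapyrrole synthesis, the route to chlorophyll, was called by edgeR. Their median was -0.68, and 4 of the 5 had an adjusted p under 0.01. Of 67 genes encoded in the plastid genome itself 51 were tested and none was called by edgeR, with a median of -0.54. Poly(A) selection retains only part of plastid RNA. Without the fold minimum 4 of them were lower and 0 higher.

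Genes for the cytosolic ribosome were higher in T24, mostly by less than the fold minimum. All 18 members had a positive log2 fold change, between 0.46 and 1.36 with a median of 0.92, and 17 had an adjusted p under 0.01. Only 5 passed the fold minimum, RPL35A (MLOC_23200), RPL14 (MLOC_13138), RPL7 (MLOC_17150), RPS10 (MLOC_21004) and RPL28 (MLOC_27966). RPL35A rose from 21.9 ± 6.47 (mean ± SD, n = 4) to 56.2 ± 10.8, and its groups did not overlap. The count was 14 with library size alone, 3 with upper-quartile factors, 2 without T24 replicate 4 or without C replicate 1, 8 without T24 replicate 1, and 11 without C replicate 4. RPL7, RPS10 and RPL28 stood at 0.98, 0.94 and 0.93 without T24 replicate 4 and at 0.98, 0.96 and 0.96 without C replicate 1, and were then not called. Ribosomal protein genes also occur in close copies, which unique counting treats in the same way.

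Starch and sugar genes moved in both directions. SS2 (MLOC_15538), a starch synthase, rose from 25.4 ± 3.97 (mean ± SD, n = 4) to 76.2 ± 1.36. GWD1 (MLOC_14775), the glucan, water dikinase that opens starch granules for breakdown, was at 19.1, 13.8, 26.7 and 25.1 in C and at 47.3, 48.1, 64.7 and 50.9 in T24. Both genes separated infested from control leaves, with log2 fold changes of 1.58 ± 0.16 and 1.32 ± 0.25. SWEET1 (MLOC_10342), a glucose transporter of the plasma membrane, was low, at 1.99 ± 0.703 in C and at 0.365, 0.363, 0.271 and 0.217 in T24, without overlap. It fell by 2.69 ± 0.50 on the log2 scale (edgeR adjusted p = 5.1e-05). Of 10 members 8 were tested and the other 5 were not called. The median of -0.12 turned to 0.11 with library size alone.

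Among the genes of other hormones, CKX1 (MLOC_11021), a cytokinin oxidase that degrades cytokinin, was at 50.7, 30.4, 44.6 and 46.3 in C and at 4.83, 10.5, 11.2 and 5.73 in T24. The groups were well apart, and it fell by 2.43 ± 0.31 on the log2 scale (edgeR adjusted p = 4.7e-07). The cytokinin receptor AHK4 (MLOC_10709) was called higher at 1.04 ± 0.20, a call that ended with upper-quartile factors (0.97) and without T24 replicate 3 (0.91), T24 replicate 4 (0.92) or C replicate 4 (0.94). CKX5 and the response regulator ARR3 were not called, at -0.07 and -0.77, nor were the gibberellin genes KS, KO and GA20OX1 at -0.46, -0.89 and 0.25. On this list of 9, 8 were tested, with 1 called higher and 1 lower and a median of -0.33. Without the fold minimum 1 was higher and 4 were lower, among them KS, KO and ARR3.

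In the ethylene list ERF4 (MLOC_24530), a repressor of ethylene responses, rose by 1.60 ± 0.28 on the log2 scale, from 1.01 ± 0.310 to 3.04 ± 0.251. It was the only call among 4 tested members, and the receptor ETR1 and the transcription factor EIN3 were at 0.38 and 0.33. In the abscisic acid and dehydration list COR47 (MLOC_14884), a dehydrin that protects cells from drying, was at 332, 175, 385 and 312 in C and at 123, 114, 119 and 78.8 in T24. It fell by 1.47 ± 0.24 on the log2 scale, and was the only call among 5 tested members. The list's median was -0.35, and no member was called higher.

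Cell type markers were limited. The mesophyll markers LHCB2, LHCB3, LHCB6 and LHCA1 were present in every leaf and together held 1.38% to 1.93% of counts in C and 0.470% to 0.825% in T24, and all 4 were called lower. All 4 are also on the photosystem list above, so their fall is the same result and not a separate one. Of 3 guard cell markers 3 were tested and none was called by edgeR (median -0.42). Of 3 vascular markers 2 were tested and none was called (median 0.73). Of 3 epidermal markers 2 were tested and LTPG1 (MLOC_13303), a lipid transfer protein of the cuticle, was called lower at -1.01 ± 0.17. That call ended with library size alone (-0.79), DESeq2, the stricter filter (-0.99), and without T24 replicate 3 or 4 (-0.96 and -0.94) or C replicate 3 (-0.89). The other, CER1 (MLOC_11693), an enzyme of wax synthesis, was barely detected, at 0.0446 to 0.671 in C and 0 to 0.0909 in T24, and was not called at -2.46 ± 0.98 (edgeR adjusted p = 0.032). The median of the pair was -1.74. The part of cell composition in the results was not tested.

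None of 4 tested heat shock genes was called by edgeR, and 0 had an adjusted p under 0.01. MCM5 (MLOC_10314), a subunit of the DNA replication helicase, was the only call among 10 tested genes of DNA replication and cell division, at 1.46 ± 0.42 and low levels. It was not called without T24 replicate 4 (1.26), C replicate 1 (1.14) or C replicate 4 (1.34). LHY (MLOC_14118), a morning gene of the circadian clock, fell by the fold minimum and no more (SE 0.13 on the log2 scale), and its call ended under several settings, among them DESeq2 (-0.99), library size alone (-0.78), and without T24 replicate 4 (-0.89) or C replicate 1 (-0.95). Its samples did not overlap, at 5323 to 6155 in C and 1979 to 3214 in T24. The other 3 clock genes were not called, but all 4 log2 fold changes were negative with a median of -0.70, and 3 of the 4 had an adjusted p under 0.01. Together the clock genes held 0.549% to 0.638% of counts in C and 0.285% to 0.403% in T24.

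Outside the lists, the largest rises among genes in the held part of the table of matches included several signalling genes. The receptor-like kinase RLK1 (MLOC_13365, AT5G60900) was at 0.0958, 0, 0.134 and 0.194 in C and at 3.42, 4.27, 2.71 and 9.11 in T24, a log2 fold change of 5.46 ± 0.66. It was followed by a flavin monooxygenase (MLOC_22124, AT4G38540) at 4.94 and a GRAS transcription factor (MLOC_16989, AT5G66770) at 4.63. An alpha/beta hydrolase (MLOC_13267, AT2G36290) was at 4.48, MLOC_24388 (AT3G48770) at 4.36 and an integrin-linked kinase type gene (MLOC_14660, AT2G31800) at 4.34. The largest falls were of an acetyltransferase-type gene (MLOC_21153, AT2G23060) at -2.21, MLOC_11246 (AT2G28400) at -2.16 and a GDSL lipase (MLOC_11224, AT1G71691) at -2.08, which was -2.67 without T24 replicate 1. Behind them came a thylakoid lumen protein (MLOC_15777, AT4G24930) at -1.79, CRR42 (MLOC_21149, AT5G20935), an assembly factor of the plastid NADH dehydrogenase-like complex, at -1.79, and the AT-hook protein AHL1 (MLOC_19597, AT4G12080) at -1.77.

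The extremes of the comparison lay among genes outside the held part of the table, which are given by identifier. MLOC_60765 had 0, 1, 0 and 1 counts in the control libraries and 8597, 7568, 7737 and 7808 in T24, and it was at 392, 344, 523 and 339 normalised CPM in T24. The ratio of pooled normalised counts was 20089, with an exact 95% counting interval of 5561 to 165888. MLOC_74627 had 1 count over the 4 controls, in replicate 1, and 3979, 3998, 4391 and 4268 counts in T24, at 181, 182, 297 and 185 normalised CPM, a ratio of 21078 with an interval of 3783 to 832603. Both intervals cover counting error only. Among the falls, MLOC_78575 was at 3.35, 2.90, 3.12 and 0.807 in C and at 0.0912, 0.136, 0.135 and 0.174 in T24, and it fell by 4.17 ± 0.55 on the log2 scale. MLOC_37052 was spread widely within C, at 369, 1795, 441 and 108, and was at 29.5, 39.6, 35.2 and 9.90 in T24. It fell by 4.57 ± 0.74, or by 3.42 without control replicate 2. These genes were picked among those whose groups do not overlap, so the separation of the leaves was fixed by the choice.

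T24 was next set directly against the other groups, to show where this infestation differed from the specialist mite and from wounding at the same time, and from the same mite earlier. Against O24, 522 genes were higher in T24 (3.08% of those tested) and 1059 were lower (6.25%). Against W24, 1502 were higher (8.86%) and 855 lower (5.04%). Against T2, 1694 were higher (10%) and 552 lower (3.26%). T2 leaves received 400 mites and T24 leaves 200, so time and mite number cannot be told apart in that contrast.

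**Figure D3:**
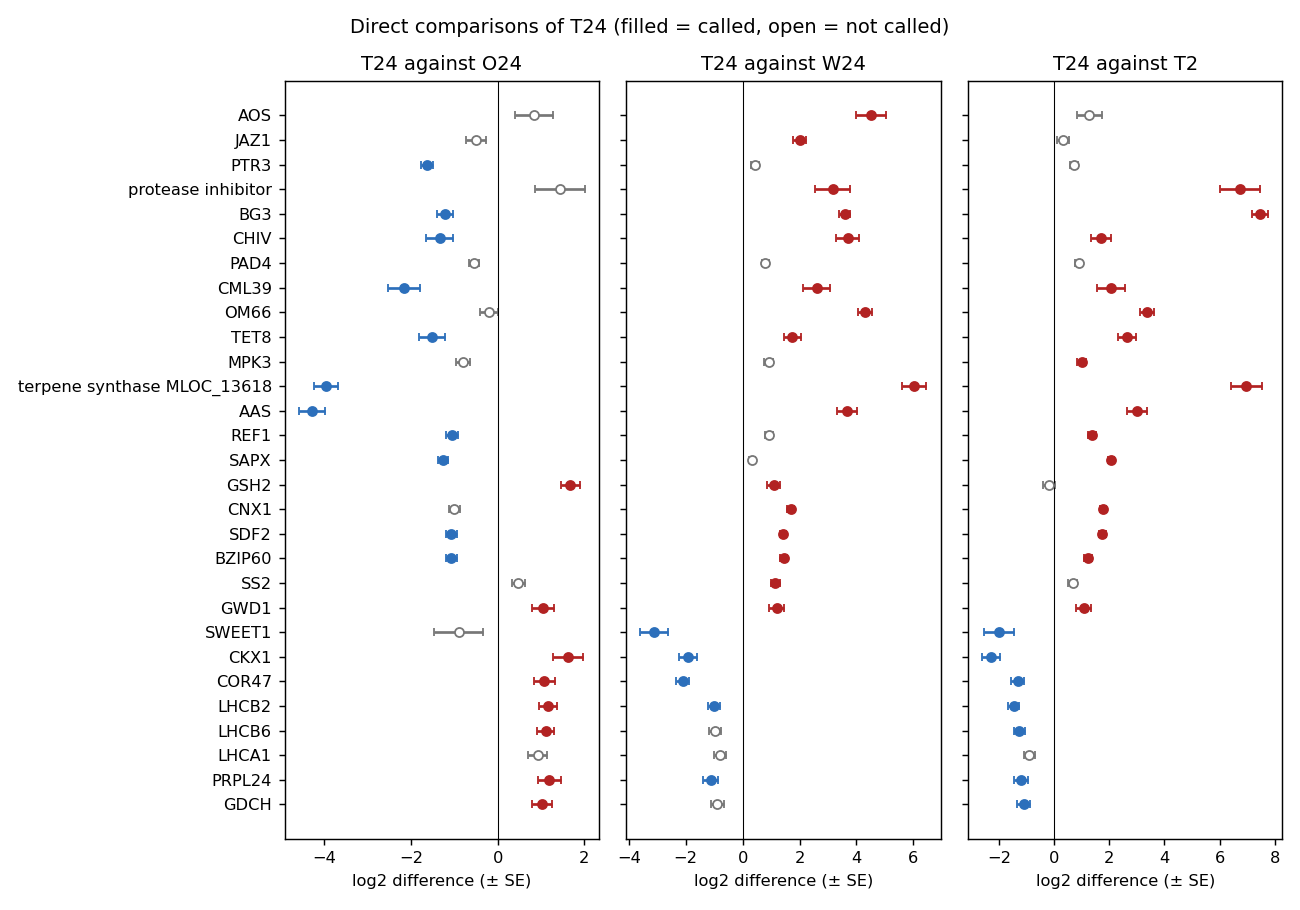
Each row is a gene and each panel a direct comparison of T24 with another group of 4 leaves, with the log2 difference on the x axis (bars, SE) and filled points for genes that were called. AAS and the terpene synthase MLOC_13618 lie far below O24 (-4.29 and -3.96), while GSH2 and GWD1 lie above it (1.68 and 1.05).

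Between the mites, most named genes that differed were less changed in T24. AAS was at 172, 298, 242 and 241 in O24, so the infested T24 leaves were 19.6-fold lower (log2 difference -4.29 ± 0.30; edgeR adjusted p = 2.0e-10). CML39 was at 12.8, 21.3, 11.2 and 15.4 in O24, a log2 difference of -2.17 ± 0.37, and PTR3, TET8, CHIV, SAPX and BG3 differed by -1.63, -1.52, -1.34, -1.26 and -1.22. All 6 protein folding genes had a negative log2 difference, of which SDF2 and BZIP60 were called lower in T24 at -1.07 each. Of the 14 photosystem genes 2 were called higher in T24 than in O24, LHCB2 at 1.17 and LHCB6 at 1.11, beside 3.08% of all genes tested. All 14 differences were positive. AOS, JAZ1, the protease inhibitor and OM66 were not called between the mites, at 0.84 ± 0.44, -0.50 ± 0.22, 1.44 ± 0.57 and -0.20 ± 0.20.

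A few genes were more changed under the generalist. GSH2 was at 8.56, 13.1, 7.11 and 6.59 in O24 and at 15.9, 14.6, 11.5 and 10.6 in W24, and each T24 leaf exceeded each leaf of both groups. T24 was higher by 1.68 ± 0.23 and 1.10 ± 0.23 on the log2 scale (edgeR adjusted p = 3.0e-06 and 0.00025). In T2, GSH2 was at 34.1, 31.2, 27.1 and 35.6, a log2 difference of -0.18 ± 0.22 that was not called. GWD1 was at 23.3, 28.4, 20.4 and 29.4 in O24, and T24 was higher than O24, W24 and T2 by 1.05, 1.19 and 1.07 on the log2 scale. MLOC_60765 and MLOC_74627 were at 0.769 to 12.7 and at 2.07 to 22.7 in O24, and T24 was higher by 5.65 ± 0.40 and 4.45 ± 0.41.

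**Figure D4:**
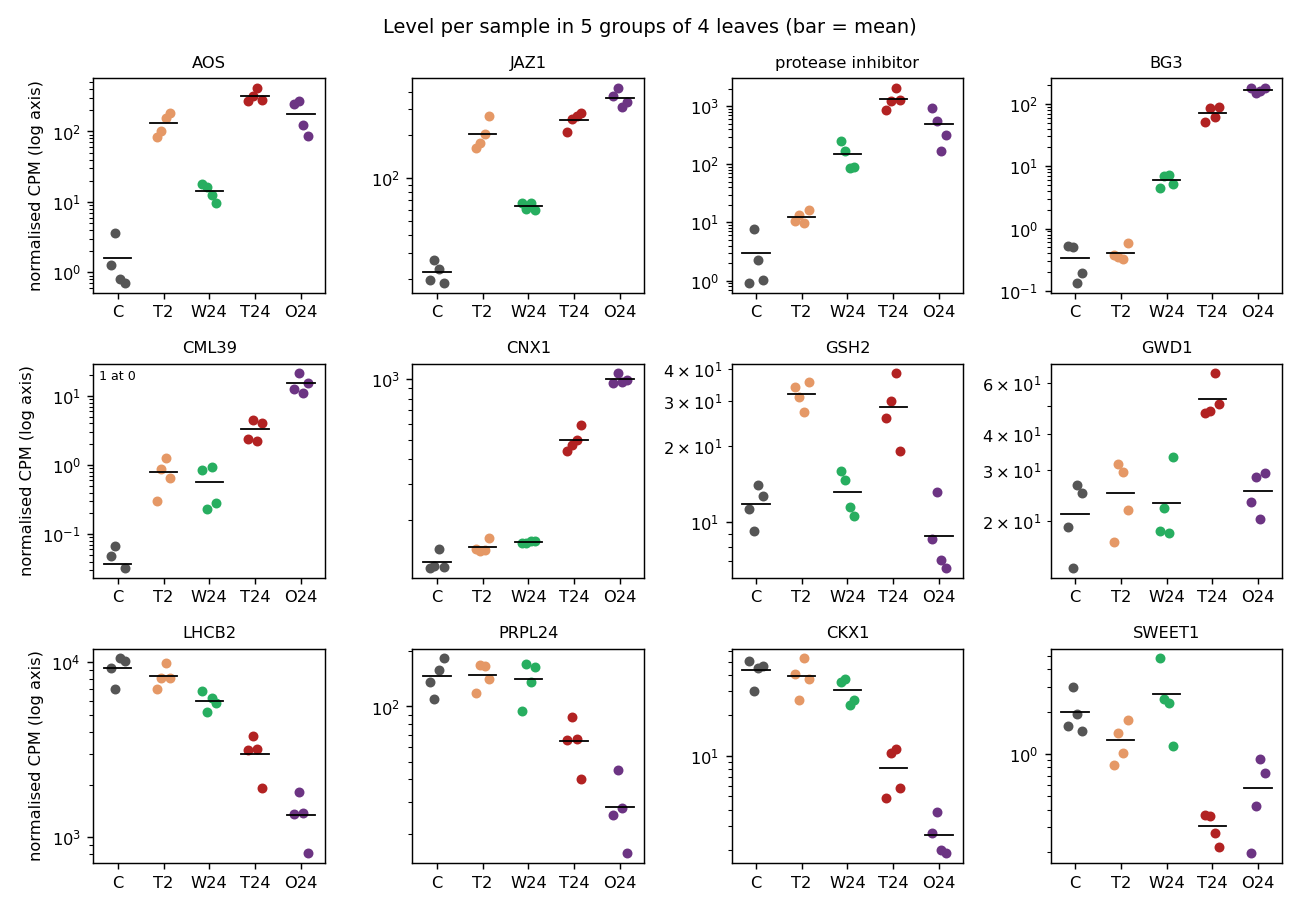
Normalised CPM of 12 genes (log y axes) in each leaf of 5 groups of 4, with black bars for means; the control leaf without a count of CML39 cannot be drawn on a log axis and is noted in its panel. AOS and JAZ1 are already high in T2, BG3 in T2 overlaps C, CNX1 is highest in O24 and T24, GSH2 is high in T2 and T24 but not in O24, and LHCB2, PRPL24 and CKX1 are lower in T24 and lower still in O24.

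Compared with sandpaper wounding, T24 was higher for many of the induced genes. The sandpaper was pressed on once, 24 h before collection, whereas the mites could feed until collection. The type of damage and its timing therefore cannot be told apart in this contrast. AOS was at 17.7, 16.5, 12.6 and 9.53 in W24, and T24 was higher by 4.52 ± 0.52 on the log2 scale (edgeR adjusted p = 1.7e-07). JAZ1 differed by 2.00 ± 0.23, the protease inhibitor by 3.17 ± 0.61, BG3 by 3.59 ± 0.20 and OM66 by 4.30 ± 0.26. SAPX, PTR3, PAD4 and MPK3 were not called between T24 and W24, at 0.32 ± 0.11, 0.45, 0.79 and 0.91. Of the 6 protein folding genes 5 were called higher in T24 than in W24, with a median of 1.39. The other way, COR47 was at 525, 407, 495 and 446 in W24 and lower in T24 by 2.11 on the log2 scale. Of 4 heat shock genes 2 were called lower in T24 than in W24, and 3 of 8 plastid ribosome genes and 2 of 14 photosystem genes were too. Among all genes tested 5.04% were called lower in that contrast and 8.86% higher.

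Against the earlier time, the jasmonate genes were not called and many others were. AOS and JAZ1 were at 84.7 to 185 and 161 to 272 in T2, and their log2 differences of 1.28 ± 0.45 and 0.33 ± 0.22 between T24 and T2 were not called. BG3 was at 0.381, 0.355, 0.320 and 0.577 in T2, overlapping the controls, and T24 exceeded it by 7.46 ± 0.30 (edgeR adjusted p = 2.1e-15). The protease inhibitor exceeded T2 by 6.75 ± 0.73, and MLOC_13618 by 6.96 ± 0.56. SAPX and the folding genes were likewise higher in T24 than in T2, SAPX by 2.06 and 5 of 6 folding genes with a median of 1.43. Of the 14 photosystem genes 5 were called lower than in T2, and of the 8 plastid ribosome genes 5, beside 3.26% of all genes tested.

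Each group's own comparison with the same 4 controls gives these values side by side. Against C, 20.0% of genes were called higher and 15.6% lower in O24, 5.72% and 0.277% in W24, and 2.47% and 0.0236% in T2. The median log2 fold change of the 14 photosystem genes was -1.24 in T24, -1.86 in O24, -0.39 in W24 and -0.17 in T2, with 9, 14, 0 and 0 called lower. That of the 6 folding genes was 1.58, 2.51, 0.25 and 0.15, with 5, 6, 0 and 0 called higher. That of the 18 cytosolic ribosome genes was 0.92, 1.15, 0.18 and 0.08, with 5, 14, 0 and 0 called higher.

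The shares of counts held by the called genes varied among the 4 T24 leaves. Genes called higher held 13.8%, 14.9%, 16.8% and 19.1% of the counts of T24 replicates 1 to 4, and 2.94% to 3.49% in C. Genes called lower held 15.8%, 15.5%, 13.1% and 10.4% in T24 and 25.3% to 30.2% in C. Since these genes were chosen on the same samples, the shares are a description. Replicate 4 was the highest T24 library in 1621 of the 2389 upregulated genes and the lowest in 684 of the 982 downregulated genes. Without it 2085 genes were called higher and 763 lower.

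**Figure D5:**
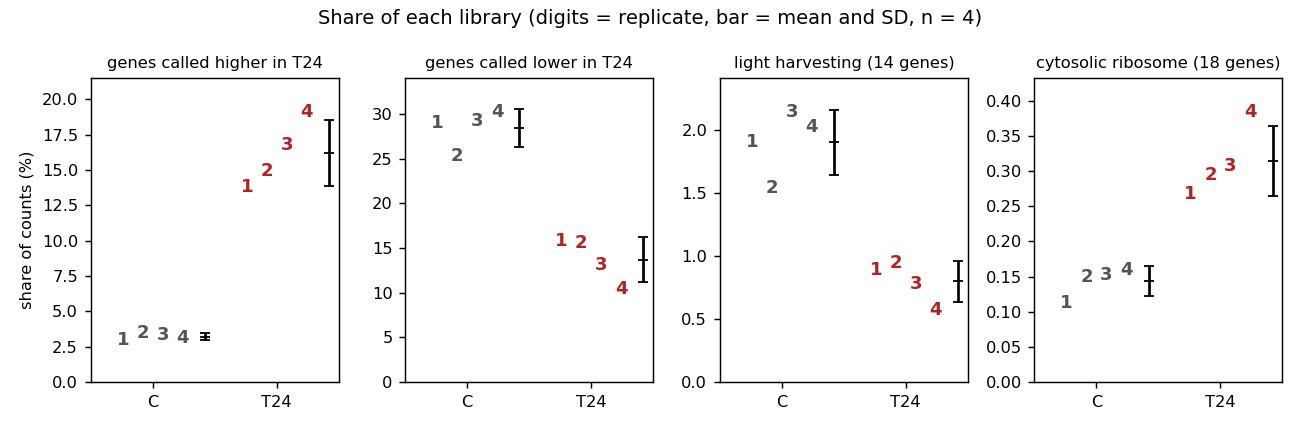
Share of each library's counts (y axes, percent, from 0) held by the genes called higher, the genes called lower, 14 photosystem genes and 18 cytosolic ribosome genes in C and T24. Digits are replicate numbers and bars the mean and SD (n = 4), and T24 replicate 4 is farthest from the controls in all 4 panels.

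Photosystem and cytosolic ribosome genes were likewise farthest from the controls in replicate 4. Photosystem genes held 0.887%, 0.947%, 0.777% and 0.574% of counts in T24 replicates 1 to 4 and 1.54% to 2.14% in C. Cytosolic ribosome genes held 0.268%, 0.295%, 0.307% and 0.384% in T24 and 0.112%, 0.149%, 0.152% and 0.160% in C. Replicate 1 was the lowest and replicate 4 the highest for them in C as well as in T24, and also in O24 and W24 but not in T2. The shares of other lists had another order, with jasmonate (0.0797%) and defence genes (0.232%) highest in T24 replicate 3. These 2 shares followed the most abundant members, AOS (412 normalised CPM in replicate 3) and the protease inhibitor (2037). Of the other members called higher, JAZ1, PTR3, BG3 and CHIV were highest in replicate 4 (283, 27.6, 89.2 and 9.46). PAD4 and the thaumatin-like protein were highest in replicate 2, and the PR-1-like protein in replicate 1. Among the controls, replicate 2 had the lowest level of 494 of the 982 downregulated genes, including LHCB2, LHCB3, LHCB6 and COR47, and the highest level of AOS, the protease inhibitor and MLOC_13618. Without C replicate 2, 2388 genes were called higher and 1087 lower.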

How the data were processed

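The authors sequenced stranded poly(A) libraries, aligned them with STAR to barley assembly ASM3268v1 and had HTSeq count, strand-aware, the reads that aligned at a single place in a locus. The submitters' processing notes name STAR 2.5.1b and HTSeq 0.6.0. The values the authors deposited are whole, unnormalized counts, and 0 sample columns were left unmapped.

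Tests used edgeR 4.0.16 under R 4.3.3: filterByExpr by group (minimum count 10), TMM factors, then robust glmQLFit and glmQLFTest, fitting a mean for each group over all 28 samples with no covariates. Adjusted p-values are Benjamini-Hochberg over the 16948 genes of a contrast. Library totals ranged from 11.7 M to 38.3 M. Standard errors are the fold change divided by the root of F. Tested on simulated data with 200 changed genes among 16948, the T24 against C contrast recovered 96% with 0 false calls. The planted changes all exceeded the fold minimum, were as often up as down, and lay only in genes with a mean over 1 CPM. Recovery in genes of lower level was not tested. Recovery and false calls were not tested near the fold minimum of 1, or with changes as many and one-sided as the 3371 calls here. Pairs of replicates within T24 and C differed by 13.46 to 96.6 chi-square per gene, where sampling noise gives 1, so no library was counted more than once.

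The comparison and the gene lists were chosen with earlier results of these data known, so list counts are descriptions and no list was tested as a set. Named genes were, per list, up to 5 called members with the largest change and a mean of at least 1 CPM, the terpene synthases the study names, and outside the lists the 6 largest changes in each direction among genes in the held part of the table of matches and 2 among other genes, without overlap of samples. Other genes are given only as not called, except 2 low defence genes called higher, which were chosen after their values were seen. Matches to Arabidopsis came from a table of the study, held only in part (1998 genes), and no sequence or position was used. P-values judge differences against the spread between leaves of 1 experiment, pooled over all groups of the series. Where a group had no count, the floor was 3 counts over the group. DESeq2 1.42.0, other scalings and filters, other thresholds, the compared groups alone, the replicate number as a block and leaving out each replicate were the alternatives.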

Additional observations from a re-analysis of the deposited data

Results flagged for a closer look

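In each group of 4, a library was looked for whose distance from its nearest neighbour took up more of the group's range than Dixon's 95% critical value, which chance gives in about 1 of 20 groups. This was done for 150 groups, of which 11 (7.33%) met it. In T24, replicate 4 was high for CHIV (9.46, others 5.38 to 5.61) and TET8 (177, others 84.5 to 92.3), replicate 2 for MLOC_22124 (23.8, others 13.4 to 15.1) and replicate 3 for MLOC_74627 (297, others 181 to 185), all in normalised CPM. T24 replicate 3 also had the smallest library, 13.7 M counts beside 20.2 M to 20.7 M. In C, replicate 2 was low for ERF4 (0.546, the next at 1.13), PGD2 (132, others 157 to 160) and LHCB3 (3475, others 4771 to 5004) and high for MLOC_13618 (0.409, others 0 to 0.0323). C replicate 3 was high for CNX1 (143, others 115 to 118), and C replicate 1 held the only control count of MLOC_74627 (0.0479).

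The 2 mites differed at 24 h, by edgeR's direct contrast of T24 with O24, for 26 of the 72 named genes. Over all genes tested, 3.08% were called higher and 6.25% lower in T24 in that contrast. The named genes were picked for large changes between T24 and C, so their count does not measure how far the mites differ. T24 was lower than O24 for 12 of them and higher for 14. On the log2 scale the differences were -4.29 for AAS, -3.96 for MLOC_13618, -2.17 for CML39, -2.13 for MLOC_13267, -1.63 for PTR3, -1.52 for TET8, -1.34 for CHIV, -1.26 for SAPX, -1.22 for BG3, -1.07 for both SDF2 and BZIP60, and -1.06 for REF1. T24 was higher by 5.65 for MLOC_60765, 4.45 for MLOC_74627, 1.72 for LTPG1, 1.68 for GSH2 and 1.63 for CKX1. The other differences were 1.37 for MLOC_21153, 1.19 for PRPL24, 1.17 for LHCB2, 1.11 for LHCB6, 1.08 for COR47, 1.05 for both PRPS5 and GWD1, 1.02 for GDCH and 1.01 for MLOC_11246. Of the genes in which T24 was higher, those that fell in T24 against C had fallen further in O24 (LHCB2 by 2.79 against 1.62 on the log2 scale), whereas GSH2 rose in T24 and stood at -0.42 in O24 against the same controls.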

How the results depend on the processing

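The count of calls rested mostly on the fold threshold. With no fold minimum edgeR called 8416 genes between T24 and C (4617 higher, 3799 lower), and with a test against the minimum itself (glmTreat) 1531 (1389 higher, 142 lower), in place of 3371. The count of lower genes was 543 with library size alone and 652 with a filter of at least 5 CPM in at least 4 samples. Under the settings tried, 0 of the 3371 genes were called in the opposite direction. Genes called lower between T24 and T2 were 287 with library size alone and 342 to 712 with 1 replicate left out, the lowest without T24 replicate 4, in place of 552. The other counts of calls of the 4 contrasts stayed within 1.5 times.

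The study grew its plants in a randomized block layout, but the sources used here do not say that a replicate number marks a block. The libraries were numbered in runs by replicate, each run holding every group in mixed order, so blocks are possible. The main model did not include them. Same-numbered T24 and C leaves correlated in their deviations at 0.119, -0.078, -0.024 and 0.073, and same-numbered T24 and O24 leaves at 0.017, 0.267, 0.003 and 0.339. Not every pair was over 0.1, so the numbers were not used as a pairing. With the replicate block 3375 genes were called between T24 and C, 2399 of them higher, and of the named genes DAHP synthase lost its call in that contrast (0.99).

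Of 1734 values of named genes under alternatives, 1637 kept direction and call, 97 lost the call and 0 reversed. Of the medians of lists, those near 0 changed sign. That of glutathione and redox was 0.11 with library size alone and -0.17 to 0.03 with 1 replicate left out, the highest without C replicate 4. That of starch and sugar transport was 0.11 with library size alone, 0.08 with no filter, 0.11 with DESeq2 and -0.19 to 0.03 with 1 replicate left out. That of DNA replication was -0.03 with upper-quartile factors, -0.00 with the stricter filter and -0.00 to 0.11 with 1 replicate left out.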
